A study of Mus musculus with 10 samples.

Results

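A set of 10 genes of purine nucleotide synthesis was followed in mouse O9-1 cells, a line derived from the cranial neural crest. They were found by their symbols among the 43346 genes of the count table, and all 10 were present and passed the filter on low counts. Ppat, Gart, Pfas, Paics, Adsl and Atic build inosine monophosphate (IMP), Adss and Adssl1 serve the branch to AMP, and Impdh2 and Gmps serve the branch to GMP. The genes are enzymes of 1 pathway and were chosen by name, with the measured differences of both knockouts from wildtype already known. Values in those comparisons are therefore a description, and their p-values say where a gene stood in a fit across all genes rather than giving independent evidence.

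Poly-A RNA was sequenced from 4 independent wildtype samples of O9-1 cells (WT), 3 Kat5 ko clones and 3 Ep400 ko clones. All of them were kept on Matrigel in medium conditioned by STO fibroblasts, at 37 °C under 5% CO2. Kat5 is the histone acetyltransferase and Ep400 the ATPase of the Tip60/Ep400 chromatin remodeling complex, and the question was how far gene expression depends on either. Both genes were edited with CRISPR/Cas9 in this tetraploid line, with frameshifts in all alleles of the Kat5 clones and of clone Ep400/1, whereas Ep400/2 and Ep400/3 kept in-frame deletions at the ATP binding site in some alleles. Each knockout library is a single clone, so editing, transfection and clonal growth cannot be told apart in a comparison with WT.

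New purines are assembled step by step on phosphoribosyl pyrophosphate (PRPP), a ribose phosphate that also feeds salvage of free bases. Ppat takes the committing step and is inhibited by AMP and GMP, several later steps draw on folate-bound one-carbon units, and IMP is the branch point from which AMP and GMP are made. Proliferating cells need both for nucleic acids, energy transfer and signalling. Adss and Adssl1 are isozymes of adenylosuccinate synthase, of which Adssl1 is best known from skeletal and heart muscle.

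Gene counts summed to 30968945 to 48301792 per library, the 10 genes took 0.117% to 0.274% of them, and mitochondrial genes took 0.893% to 3.24%, most in clone Ep400/3. Levels are counts scaled to the size of each library (CPM) after TMM normalization, and CPM per kb of exon length (RPKM) is used wherever levels of different genes are compared. Kat5 stood at 48.8 to 57.5 CPM in WT and at 22.9, 16.4 and 23.2 CPM in its own clones, and Ep400 at 157 to 165 CPM in WT and 54.7, 61.4 and 59.7 CPM in its own clones. Neural crest markers were present, with 9 of 10 detected and Sox10 at 0 in every library. Their summed level was 1498 to 1732 CPM in WT, 1521 to 1746 CPM in the Kat5 clones and 1749 to 3011 CPM in the Ep400 clones. Most of the sum was Prrx1 and Cd44 (means of 827 and 452 CPM in WT), with Prrx1 at 2158 CPM in Ep400/3. The markers did not move together. In every Ep400 clone Twist1, Snai2 and Tfap2a lay above the WT range and Snai1 and Sox9 below it. Over 14079 genes, 15.9% lay above the WT range in every Ep400 clone and 14% below it. In the edgeR test of Ep400 against WT, the adjusted p was 0.0451 for Snai2 and 0.0230 for Tfap2a. For Snai1, Twist1 and Sox9 it was 0.104, 0.112 and 0.161. In these bulk samples fewer cells of a type and less RNA per cell cannot be told apart. Both comparisons with WT share the same 4 WT libraries. Clone Kat5/1 stood apart from Kat5/2 and Kat5/3 in most of the purine genes and also over all genes. Results that rest on it are given with and without it.

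Positions are those of GENCODE M21 on GRCm38, the build that is also called mm10. Ppat and Paics lie head to head on chromosome 5, Ppat at 76913249 to 76951578 on the minus strand and Paics at 76951307 to 76967509 on the plus strand. Their first exons overlap by 272 bases, and reads from there can be told apart only if strand was used in counting, which the sources used here do not give. Gart lies on chromosome 16 at 91621186 to 91646952 (minus), Pfas on chromosome 11 at 68985697 to 69008460 (minus), Adsl on chromosome 15 at 80948490 to 80970946 (plus) and Atic on chromosome 1 at 71557150 to 71579631 (plus). Adss lies on chromosome 1 at 177762962 to 177796511 (minus) and Adssl1 on chromosome 12 at 112620045 to 112641360 (plus). Impdh2 lies on chromosome 9 at 108560286 to 108565584 (plus) and Gmps on chromosome 3 at 63976106 to 64022579 (plus). Impdh2 shares 48 exon bases with Ndufaf3 on the opposite strand, which had 168 to 512 reads per library against 3943 to 15731 for Impdh2. Gart shares 1014 exon bases with the antisense gene Gm15964, which had 0 to 5 reads.

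The upstream sequences of Gart and Adssl1 are shown because these genes had the largest differences from WT among the 10, Gart in the Ep400 clones and Adssl1 in the Kat5 clones. They are RefSeq windows on GRCm38.p6, read 5′ to 3′ on the strand of the gene, and capitals mark the GC box GGGCGG or its reverse complement CCGCCC. The Gart window, chr16:91646973-91647222 on the minus strand, and the Adssl1 window, chr12:112619797-112620044 on the plus strand, both end just before the start of transcription.
Gart: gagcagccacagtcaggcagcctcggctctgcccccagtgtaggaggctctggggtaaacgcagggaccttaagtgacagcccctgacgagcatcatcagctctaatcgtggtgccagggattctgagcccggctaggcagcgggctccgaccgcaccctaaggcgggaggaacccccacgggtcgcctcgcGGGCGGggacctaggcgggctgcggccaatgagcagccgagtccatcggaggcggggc
Adssl1: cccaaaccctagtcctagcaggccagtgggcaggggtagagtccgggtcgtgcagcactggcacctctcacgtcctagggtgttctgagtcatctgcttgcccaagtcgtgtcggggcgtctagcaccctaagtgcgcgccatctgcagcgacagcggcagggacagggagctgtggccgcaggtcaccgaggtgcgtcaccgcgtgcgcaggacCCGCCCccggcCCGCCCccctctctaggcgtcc

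Windows of 250 bases before to 50 after the start were matched for 9 of the 10 genes, and for Pfas none was matched. Searched on both strands, GGGCGG was found in 9 of these 9 windows, against 35.7% of 32851 windows of the same length. The E-box CACGTG was found in 3 of them (Paics, Atic and Impdh2), against 7.15% of all windows. CCAAT was found in 4 (Gart, Paics, Atic and Impdh2), against 37.4%, and the letters TGATGNAAT, a form of the C/EBP-ATF element, in 0, against 0.965%. Neither Gart nor Adssl1 held CACGTG in its window. These matches describe letters only, and a link between them and the levels was not tested.

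In WT the levels per length covered a wide range. Paics was highest with 190.1 ± 27.6 RPKM (SD, n = 4), followed by Impdh2 with 79.4 ± 9.59 RPKM. Adss (44.9 ± 2.66 RPKM) and Gart (42.8 ± 8.18 RPKM) were next and differed by less than their spread. The libraries of Atic (29.8 ± 0.518 RPKM) and Adsl (25.8 ± 3.05 RPKM) overlapped, as did those of Adssl1 (20.1 ± 4.01 RPKM) with Adsl, Gmps (16.5 ± 1.32 RPKM) and Ppat (15.8 ± 2.43 RPKM). Pfas was lowest with 9.38 ± 0.826 RPKM. Length here is the union of all annotated exons, so this order also rests on the annotation. Atic and Impdh2 had close mean CPM in WT (238 and 244) but lengths of 7985 and 3077 bases.

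For 7 of the 10 genes, all but Paics, Adss and Adssl1, the mean of the Kat5 clones lay above that of WT and the mean of the Ep400 clones below it, but clone Kat5/1 did not share the higher level. Expressed as log2 of each library over the WT mean, the median of the 10 genes was −0.16 in Kat5/1 but 0.80 in Kat5/2 and 0.75 in Kat5/3. In Ep400/1, Ep400/2 and Ep400/3 it was −0.34, −0.43 and −0.99, and the 4 WT libraries spanned −0.073 to 0.055. Over the 6 IMP enzymes alone it was −0.21, 0.98 and 0.85 in the Kat5 clones, −0.43, −0.66 and −1.05 in the Ep400 clones and −0.24 to 0.070 in WT. Thus Kat5/2 and Kat5/3 were the high libraries and Ep400/3 the lowest, while Kat5/1 lay just below the WT libraries over the 10 genes and within their range over the 6.

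**Figure D1:**
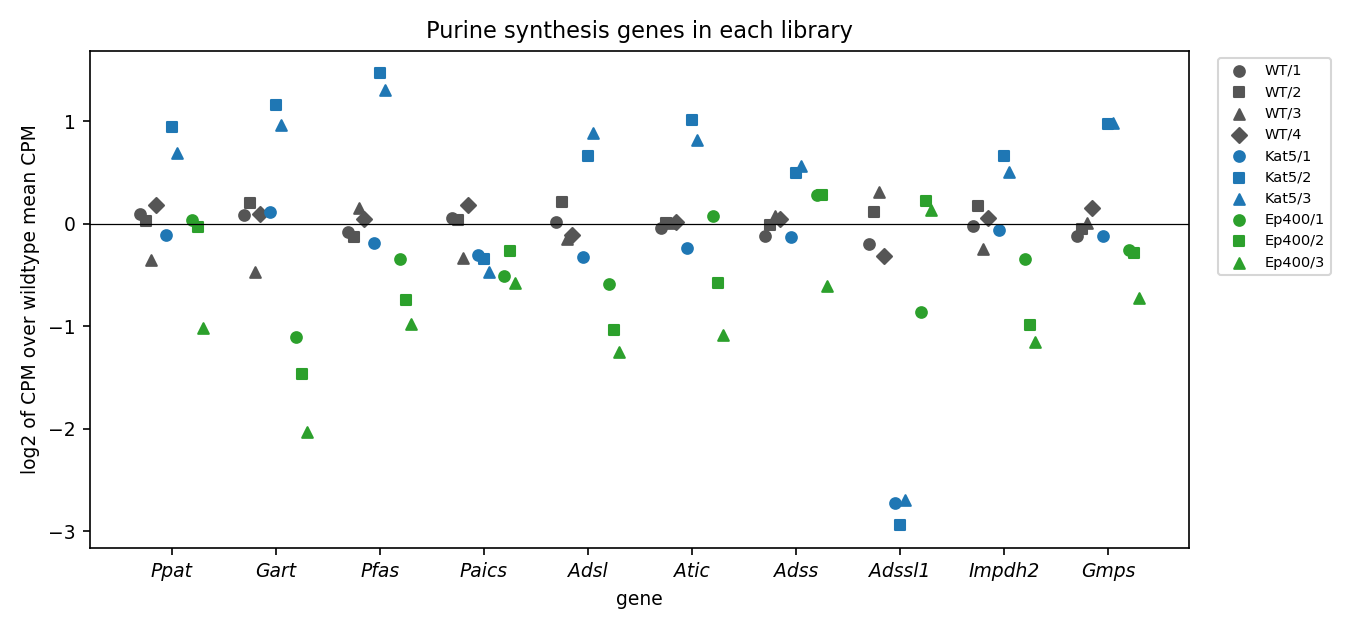
Level of each of the 10 purine synthesis genes in each library, as log2 of CPM over the WT mean, with 1 point for each of 4 WT, 3 Kat5 ko and 3 Ep400 ko libraries. Kat5/2 and Kat5/3 lie above WT for 8 genes while Kat5/1 lies near WT, and Adssl1 is the gene for which all 3 Kat5 clones lie far below WT.

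In the test across all genes, with edgeR's quasi-likelihood model and Benjamini-Hochberg adjustment over every gene tested, a gene was called at an adjusted p of at most 0.05. Of the 10 genes, 1 was called in Kat5 against WT (Adssl1, lower), where 0.625% of 13434 genes were called in all and 0.447% in the downward direction. In Ep400 against WT 4 were called (Gart, Pfas, Adsl and Impdh2, all lower), against 13.7% of 13836 genes in both directions and 5.72% in the downward direction. The median log2-fold change of the 10 was 0.50 in Kat5 against WT and −0.45 in Ep400 against WT, where that of all genes tested was 3.2e-05 and 0.043. Before adjustment, 6 of the 10 had a p of at most 0.05 in Kat5 and 6 in Ep400, where 22.3% and 32.2% of all genes did. With a change of at least 2-fold and a mean count over 100 also required, 1 remained in each (Adssl1 in Kat5 and Gart in Ep400), against 0.476% and 6.41% of all genes.

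Ppat, glutamine PRPP amidotransferase, had 74.7, 71.1, 54.7 and 79.4 CPM in WT, 65.0, 134 and 113 CPM in Kat5/1, Kat5/2 and Kat5/3, and 71.6, 68.6 and 34.7 CPM in Ep400/1, Ep400/2 and Ep400/3. Only Ep400/3 was low and only Kat5/2 and Kat5/3 were high, so both knockouts overlapped WT. The log2-fold change was 0.54 (SE 0.24, edgeR adjusted p = 0.235) in Kat5 and −0.26 (SE 0.26, adjusted p = 0.508) in Ep400.

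Gart, an enzyme with several activities that forms, formylates and closes the first ring, had 233, 253, 158 and 236 CPM in WT. It had 238, 493 and 429 CPM in the Kat5 clones and 102, 79.7 and 54.0 CPM in the Ep400 clones. All 3 Ep400 clones lay below every WT library, and this was the largest decrease among the 10 genes in Ep400 against WT. Gart fell 2.80-fold (log2-fold change −1.49, 95% interval −2.06 to −0.91, edgeR adjusted p = 0.00932), and it was called without each of the 7 libraries in turn, with −1.72 to −1.28. In Kat5 against WT the log2-fold change was 0.78 (SE 0.26, adjusted p = 0.141), with Kat5/1 inside the WT range. The low WT value belongs to WT/3, in which the median gene of chromosome 16 also stood at −0.30 on the log2 scale relative to the WT mean. The part of that shift in the Gart values was not tested library by library, but with an offset for each chromosome Gart was still called in Ep400 against WT, at −1.51.

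Pfas, which turns the formylated glycinamide ribotide into its amidine, had 70.5, 67.9, 82.6 and 76.6 CPM in WT. Kat5/2 and Kat5/3 reached 206 and 184 CPM whereas Kat5/1 stood at 65.5 CPM, and the Ep400 clones had 58.4, 44.5 and 37.9 CPM. The Ep400 clones lay below all WT libraries, and the Kat5 clones were split to both sides of WT. Pfas fell in the Ep400 clones by 0.67 on the log2 scale (SE 0.17, edgeR adjusted p = 0.0374). That call held without Ep400/1 only, since leaving out any other library gave an adjusted p of 0.0672 to 0.0916, and with the chromosome offset the change was −0.48 (adjusted p = 0.0798). The median gene of chromosome 11 stood at −0.17, −0.19 and −0.20 in the 3 Ep400 clones.

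Paics, which carries the carboxylation and the joining of aspartate, was unlike the other IMP enzymes in Kat5/2 and Kat5/3, where it was not high. In Ep400 against WT all 6 IMP enzymes had negative changes, and that of Paics was close to that of Atic (−0.45). It had 622, 613, 474 and 678 CPM in WT, 482, 469 and 431 CPM in the Kat5 clones and 419, 496 and 399 CPM in the Ep400 clones. WT/3 was the low WT library, 4 of the 6 knockout libraries lay below it, and none reached the other WT libraries. With log2-fold changes of −0.40 (SE 0.16, edgeR adjusted p = 0.180) and −0.45 (SE 0.17, adjusted p = 0.113), Paics was not called in either knockout.

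Adsl, adenylosuccinate lyase, acts in IMP synthesis and again in the branch to AMP. It had 147, 169, 131 and 134 CPM in WT, 117, 230 and 268 CPM in the Kat5 clones and 96.6, 71.1 and 61.3 CPM in the Ep400 clones. Each Ep400 clone was below every WT library, while Kat5/1 was below and Kat5/2 and Kat5/3 were above. The decrease in Ep400 was 0.93 on the log2 scale (log2-fold change −0.93, SE 0.19, edgeR adjusted p = 0.0158), and it was called without each of the 7 libraries in turn. It was not called with 1 fit of all 10 libraries (−0.93, adjusted p = 0.0570) or with the replicate block (−0.99, adjusted p = 0.0718). The increase seen in Kat5/2 and Kat5/3 gave 0.46 (SE 0.26, adjusted p = 0.322) over the 3 clones, and the median gene of chromosome 15 stood at −0.35 in Kat5/1 and at 0.22 in Kat5/3.

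Atic, which closes the ring to IMP, was the least variable gene in WT, with 232, 239, 239.9 and 241 CPM. The Kat5 clones had 202, 479.6 and 419 CPM and the Ep400 clones 251, 159.6 and 112 CPM. Clones of the same knockout thus fell on both sides of WT. The log2-fold changes were 0.59 (SE 0.26, edgeR adjusted p = 0.220) in Kat5 and −0.45 (SE 0.25, adjusted p = 0.239) in Ep400.

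Because Ppat and Paics start from the same stretch of DNA, their ratio was followed by library. Per length, Ppat stood at 0.0853, 0.0823, 0.0819 and 0.0831 of Paics in the 4 WT libraries. It stood at 0.0958, 0.203 and 0.185 in the Kat5 clones and at 0.121, 0.0982 and 0.0616 in the Ep400 clones. The ratio was nearly constant in WT even though both genes were low in WT/3, and it was highest in Kat5/2 and Kat5/3, in which Ppat was high and Paics was not.

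**Figure D2:**
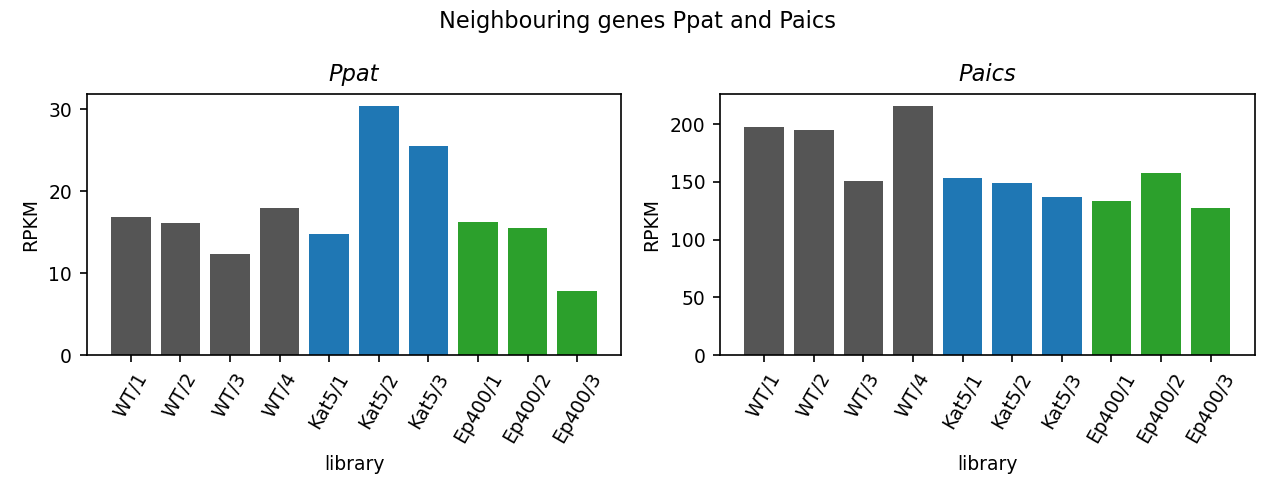
RPKM of the head-to-head genes Ppat and Paics in each of the 10 libraries, 1 bar per library, on axes that start at 0. Ppat reaches 30.4 and 25.5 RPKM in Kat5/2 and Kat5/3 against 12.4 to 18.0 RPKM in WT, while Paics is between 127 and 158 RPKM in all 6 knockout libraries against 151 to 216 RPKM in WT.

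In the branch to AMP the isozymes took different courses. Adss, the widely expressed form, had 187, 202, 214 and 211 CPM in WT, 186, 288 and 300.0 CPM in the Kat5 clones and 248, 247 and 134 CPM in the Ep400 clones. Clones of each knockout lay on both sides of the WT range, with Kat5/1 just below it and Ep400/3 well below it, and the other four above it. The log2-fold change was 0.31 (SE 0.18, edgeR adjusted p = 0.334) in Kat5 and 0.04 (SE 0.22, adjusted p = 0.915) in Ep400.

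Adssl1 had 36.7, 45.5, 52.1 and 33.7 CPM in WT, 6.37, 5.47 and 6.48 CPM in Kat5/1, Kat5/2 and Kat5/3, and 23.1, 48.9 and 45.9 CPM in Ep400/1, Ep400/2 and Ep400/3. The Kat5 clones lay close together and far below WT, and here Kat5/1 did not stand apart. Behind these values were 231, 166 and 294 reads in the Kat5 clones and 1149 to 1996 reads in WT. Adssl1 fell 7.01-fold in the Kat5 clones (log2-fold change −2.81, 95% interval −3.28 to −2.34, edgeR adjusted p = 0.00645). It was the 1 gene of the 10 for which all 3 Kat5 clones lay on the same side of the WT range, and 10.2% of 14079 genes lay below the WT range in all 3 Kat5 clones. None of the 10 lay above it in all 3, against 9.34% of genes. Adssl1 was also called without each of the 7 libraries in turn, with −2.89 to −2.68. When WT/1 or WT/4 was left out, Adssl1 was the 1 gene called among all genes tested.

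In the Ep400 clones Adssl1 was low in Ep400/1 and within the WT range in Ep400/2 and Ep400/3. The log2-fold change was −0.10 with a 95% interval of −0.72 to 0.53 (edgeR adjusted p = 0.837), and without Ep400/1 it was 0.17. The median gene of chromosome 12 stood at −0.27, 0.066 and −0.0036 in the 3 Kat5 clones, and with the chromosome offset the change of Adssl1 in Kat5 was −2.74 (adjusted p = 0.0127).

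Per length, Adssl1 made up 29.8%, 32.8%, 34.5% and 25.7% of the summed Adss and Adssl1 level in WT. It made up 6.91%, 3.96% and 4.47% in the Kat5 clones and 16.8%, 30.1% and 42.6% in the Ep400 clones. The share was therefore low in all Kat5 clones, whereas the Ep400 clones spread from below to above the WT range.

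**Figure D3:**
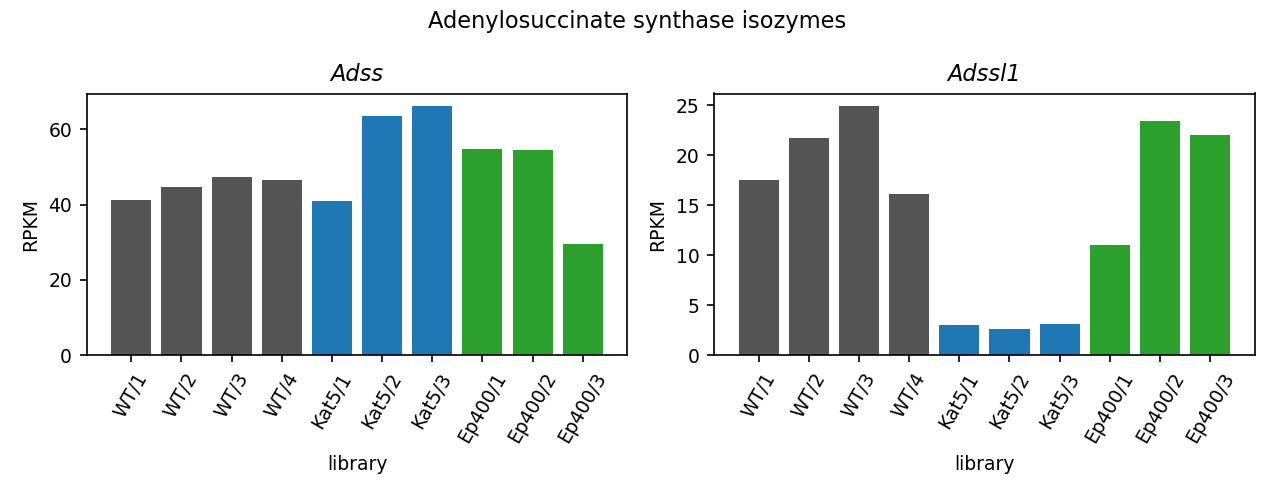
RPKM of the adenylosuccinate synthase isozymes Adss and Adssl1 in each library, 1 bar per library, on axes that start at 0. Adssl1 stands at 2.62 to 3.10 RPKM in the Kat5 clones against 16.1 to 24.9 RPKM in WT, while Adss stays between 29.6 and 66.2 RPKM in all libraries.

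Since Adssl1 is known from muscle, markers of skeletal muscle were examined. Their summed level was 1.60 to 2.53 CPM in WT, 1.93 to 2.50 CPM in the Kat5 clones and 1.87 to 2.65 CPM in the Ep400 clones. Of the 10 markers, 7, 6 and 8 were detected in these groups, and Myod1 and Actn2 were at 0 in all libraries. Ampd1, the muscle form of AMP deaminase that works in a cycle with Adssl1 and Adsl, had 0.025 to 0.26 CPM. Muscle markers were thus near 0 in all groups, and Adssl1 differed between groups whose marker sums overlapped.

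The genes whose pattern over the 10 libraries was most like that of Adssl1 were sought by the root mean square difference of log2 CPM after centring, among 14069 genes. They were Frmd5 (0.44), Rab3d (0.44), Ttc25 (0.48), Dnaaf3 (0.49) and 1700003F12Rik (0.50). Of these Rab3d, a small GTPase of vesicle traffic, had the highest counts, with 11.8 to 16.6 CPM in WT, 2.17 to 3.91 CPM in the Kat5 clones and 12.1 to 25.7 CPM in the Ep400 clones. The other four had at most 5.68 CPM in every library, so that their patterns rest on few reads. They lie on other chromosomes than Adssl1.

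In the branch to GMP, Impdh2, the form of IMP dehydrogenase that proliferating cells use most, had 241, 276, 206 and 255 CPM in WT. It had 235, 386 and 347 CPM in the Kat5 clones and 193, 123 and 110.1 CPM in the Ep400 clones. All Ep400 clones were below all WT libraries, with Ep400/1 nearest to them. The log2-fold change in Ep400 was −0.78 (SE 0.22, edgeR adjusted p = 0.0466), a call that held without Ep400/1 only, since leaving out any other library gave 0.0513 to 0.116. In Kat5 it was 0.37 (SE 0.19, adjusted p = 0.287).

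Gmps, GMP synthase, had 123, 129, 134 and 148 CPM in WT, 123, 262 and 265 CPM in the Kat5 clones and 112, 109.9 and 81.0 CPM in the Ep400 clones. Its Ep400 libraries did not overlap WT, but the change of −0.41 (SE 0.15, edgeR adjusted p = 0.110) was not called, and neither was that of 0.66 (SE 0.25, adjusted p = 0.171) in Kat5. Genes that lay below the WT range in all 3 Ep400 clones were Gart, Pfas, Adsl, Impdh2 and Gmps, 5 of the 10, against 14% of 14079 genes.

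The Kat5 values depended on clone Kat5/1. Without it, 9 of the 10 genes were called in Kat5 against WT, 8 of them higher and Adssl1 lower, where 19.4% of 13703 genes were called in all, 9.83% in the upward and 9.54% in the downward direction. The median log2-fold change was then 0.77. Pfas had the largest increase with 1.35 (edgeR adjusted p = 0.00286), followed by Gart with 1.03 (adjusted p = 0.0128), Gmps with 0.95 (adjusted p = 0.00471) and Atic with 0.88 (adjusted p = 0.00471). Ppat (0.79), Adsl (0.74), Impdh2 (0.55) and Adss (0.50) were also called, and Paics was not (−0.44, adjusted p = 0.0929). This fit compared 2 clones with 4 WT libraries and was made because Kat5/1 stood apart in these genes, so it describes Kat5/2 and Kat5/3 and not Kat5 loss as such. Kat5/1 also stood apart over all genes, and with it in the fit 0.625% of 13434 genes were called. Chi-square of the counts over its degrees of freedom was 258 between Kat5/1 and Kat5/2 and 243 between Kat5/1 and Kat5/3. Between Kat5/2 and Kat5/3 this value was 94.5. Values this large were not particular to Kat5/1. Ep400/3 had 257 with Ep400/1 and 224 with Ep400/2, against 156 between Ep400/1 and Ep400/2. Pairs of WT libraries had 28.1 to 138.

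**Figure D4:**
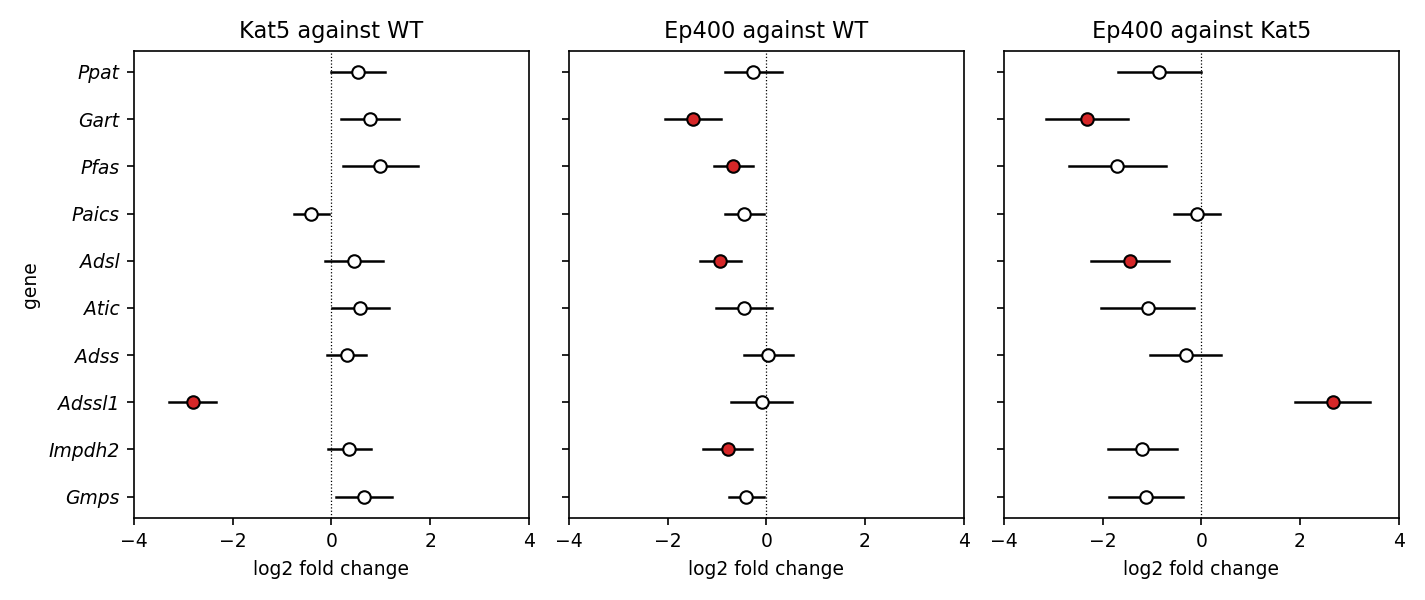
Log2-fold change of the 10 purine synthesis genes in Kat5 against WT, Ep400 against WT and Ep400 against Kat5, with 95% intervals from the edgeR fits. Red marks genes called at an adjusted p of at most 0.05, which are Adssl1 in the first comparison, Gart, Pfas, Adsl and Impdh2 in the second and Gart, Adsl and Adssl1 in the third.

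The knockouts were also compared directly, which asks whether the clones of Ep400 and of Kat5 differ from each other without use of the WT libraries. The same 6 knockout libraries enter the comparisons with WT, so this is not separate evidence. Of the 10 genes, 3 were called, Gart and Adsl lower and Adssl1 higher in Ep400, where 7.05% of 13587 genes were called in all, 4.22% higher and 2.83% lower in Ep400. All 3 also changed by at least 2-fold with a mean count over 100, against 5.35% of all genes, and 8 of the 10 had an unadjusted p of at most 0.05, against 32.4%. Gart was 4.97-fold lower in Ep400 (log2-fold change −2.31, SE 0.36, edgeR adjusted p = 0.0271), and Adsl was 2.71-fold lower (−1.44, SE 0.34, adjusted p = 0.0484). Adssl1 was 6.33-fold higher in Ep400 than in Kat5 (log2-fold change 2.66, 95% interval 1.90 to 3.43, adjusted p = 0.0204).

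Gart, Pfas, Adsl, Impdh2 and Gmps, 5 of the 10, were lower in all Ep400 clones than in all Kat5 clones, against 17.6% of 14079 genes, and Adssl1 was higher in all of them, against 20.4%. Pfas (−1.71, edgeR adjusted p = 0.0526), Impdh2 (−1.20, adjusted p = 0.0533) and Gmps (−1.12, adjusted p = 0.0672) missed the threshold. Ppat (−0.85, adjusted p = 0.149) and Atic (−1.09, adjusted p = 0.116) were not called either. For Paics the difference was −0.094 with a 95% interval of −0.56 to 0.37, and for Adss −0.32 with −1.04 to 0.41, so that differences of that size remain possible. The median over the 10 genes was −1.10, where that of all genes tested was 0.0063. Leaving out Kat5/2, Kat5/3, Ep400/2 or Ep400/3 left 0 of the 10 called, with 3 to 81 genes called in all. Leaving out Kat5/1 left 7, where 18% of 14095 genes were called.

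Around these enzymes, 41 further genes of purine metabolism were listed, of which 40 were tested and Ampd1 was too low. In Kat5 against WT 2 of the 40 were called, both lower. Gmpr, which returns GMP to IMP, had 13.8 to 19.8 CPM in WT and 7.96, 6.66 and 6.02 CPM in the Kat5 clones (log2-fold change −1.31, edgeR adjusted p = 0.0450). Aldh1l2, a mitochondrial formyltetrahydrofolate dehydrogenase, had 116, 45.9, 100.2 and 115 CPM in WT and 6.75, 5.83 and 17.4 CPM in the Kat5 clones (log2-fold change −3.27, adjusted p = 0.0434). Over all genes, 0.625% were called in this comparison and 0.447% in the downward direction. Neither gene was called without WT/1, WT/3, WT/4, Kat5/2 or Kat5/3, nor with 1 fit of all 10 libraries, and 1 was called without WT/2. Without Kat5/1, 10 of the 40 (25%) were called, 7 higher and 3 lower, where 19.4% of all genes were called.

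In Ep400 against WT 15 of the 40 were called, 13 lower and 2 higher, which is 37.5% of them against 13.7% of all genes. Without WT/1 9 were called. All 5 genes of PRPP supply had negative changes with a median of −0.45, and the called ones were the PRPP synthetase Prps1 (−0.71, edgeR adjusted p = 0.0119) and its associated protein Prpsap2 (−0.77, adjusted p = 0.0169). Reads of Prps1 may be shared with its near-identical copy Prps1l3. In salvage, Aprt, which turns adenine into AMP, fell by 1.21 on the log2 scale (adjusted p = 0.00776), from 171 to 213 CPM in WT to 78.2, 107 and 64.0 CPM.

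Among the nucleotide kinases, Ak4 and Ak5 were lower. The mitochondrial adenylate kinase Ak4 had 14.5, 39.7, 4.23 and 15.7 CPM in WT and 1.29, 0.594 and 0.647 CPM in the Ep400 clones (log2-fold change −4.44, edgeR adjusted p = 0.0101). Ak5 fell by 1.72 on the log2 scale (adjusted p = 0.00352). In one-carbon supply, which provides formyl groups to Gart and Atic, 7 of 10 changes were negative and 3 positive. Called were 3 of the 10, the mitochondrial Aldh1l2 (−2.89, adjusted p = 0.0125), Mthfd2 (−1.91, adjusted p = 0.0129) and Shmt2 (−1.38, adjusted p = 0.0429), all lower. Mthfd1l (−0.39, adjusted p = 0.473) and Mthfd2l (−0.16, adjusted p = 0.651), also mitochondrial, were not called. In the branch to GMP the reductase Gmpr2 was called (−0.63, adjusted p = 0.0288).

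Breakdown and deamination was the list with calls in both directions, with 2 of 10 higher and 3 lower. Gda, which deaminates guanine, had 3.09 to 10.4 CPM in WT and 42.2, 92.8 and 36.8 CPM in the Ep400 clones (log2-fold change 3.41, edgeR adjusted p = 0.00596). Xdh, which makes uric acid, had 11.4 to 23.0 CPM in WT and 25.2, 54.5 and 91.1 CPM in the Ep400 clones (1.91, adjusted p = 0.0215). Both genes were above the WT range in every Ep400 clone, as were 15.9% of 14079 genes.

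**Figure D5:**
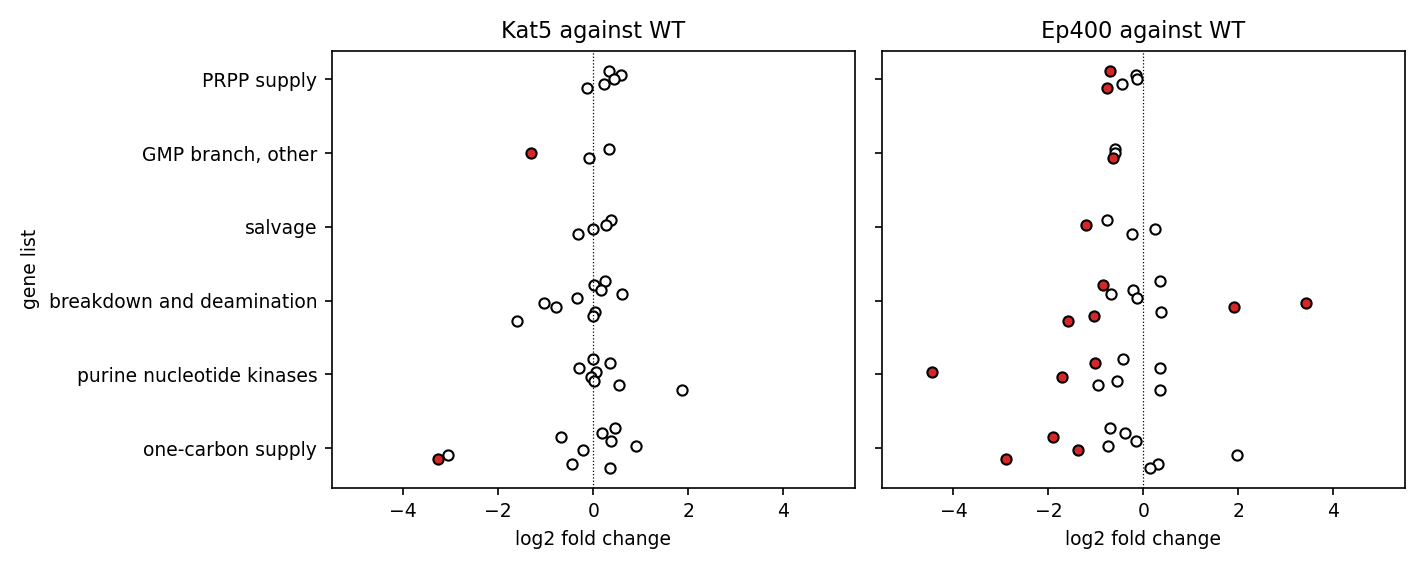
Log2-fold change of the 40 tested other genes of purine metabolism by list, in Kat5 against WT and in Ep400 against WT, 1 point per gene and red for genes called at an adjusted p of at most 0.05. In Ep400 against WT 30 of the 40 points lie below 0 and 15 are red, and in Kat5 against WT 17 lie below 0 and 2 are red.

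In Ep400 against Kat5 13 of the 40 were called, 2 higher and 11 lower, where 7.05% of all genes were called, 4.22% higher and 2.83% lower. None was called without Kat5/3, Ep400/2 or Ep400/3, 2 were called without Kat5/2 and 4 without Ep400/1. Gda (log2-fold change 4.39, edgeR adjusted p = 0.0271) and Aldh1l1 (4.97, adjusted p = 0.0396) were higher in Ep400, although Aldh1l1 stood at only 0.0551 to 0.110 CPM in the Kat5 clones. Both genes of base salvage were lower in Ep400, Hprt with −1.18 (adjusted p = 0.0323) and Aprt with −1.53 (adjusted p = 0.0271). The AMP deaminase Ampd2 was lower as well (−1.35, adjusted p = 0.0311). Lower genes included Prps1 (−1.09, adjusted p = 0.0446), Impdh1 (−0.98, adjusted p = 0.0398) and the kinases Ak4 (−4.56, adjusted p = 0.0202) and Ak5 (−1.72, adjusted p = 0.0218).

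Impdh1, the second isozyme of IMP dehydrogenase, allowed a comparison with the Adss pair. Per length it made up 22.1% to 29.3% of the summed Impdh1 and Impdh2 level in WT, 23.5% to 30.6% in the Kat5 clones and 26.1% to 31.7% in the Ep400 clones. These ranges overlapped in all 3 groups.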

How the data were processed

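RNA from 10 libraries was examined. The authors made stranded poly-A libraries, read both fragment ends on a NovaSeq and mapped to mm10. The submitters' processing notes name bcl2fastq 2.20, STAR 2.7.3, DESeq2 1.36.0 and R 4.2.1, while the counting program, its strand setting and the annotation are not given in the sources used here. The raw counts deposited by the authors are whole read counts per gene. The deposited normalized tables were not used.

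Samples were grouped by their labels. Genes were filtered with filterByExpr, scaled by TMM and tested with edgeR 4.0.16 (quasi-likelihood test, robust estimation, Benjamini-Hochberg adjustment) in R 4.3.3 within each comparison. The p-values measure the spread between WT samples, labelled as biological replicates, and between clones. The CPM are on 1 scale over all 10 libraries, and RPKM divides them by the union of exons in GENCODE M21. No library pair within a group agreed to within counting error (chi-square over its degrees of freedom, 28.1 to 258). Replicate numbers did not pair libraries.

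The 10 genes, the lists and the markers were chosen with earlier results of these data known. All 10 genes are named. Of other purine genes, all called ones are named where a list had at most 3, and otherwise the 2 with the largest change, except that 1 called gene is not reported here. The 5 genes most like Adssl1 were taken by the smallest root mean square difference. Alternatives were DESeq2 1.42.0, limma 3.58.1, other scalings, no filter, 1 fit of all libraries, a replicate block, chromosome offsets, the DEG rule (also 2-fold and a mean count over 100) and each library left out in turn. The fit without robust estimation was added after the data were seen. The edgeR procedure was tested on simulated data.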

Additional observations from a re-analysis of the deposited data

Results flagged for a closer look

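Of the 10 genes, 3 were called in the test of Ep400 against Kat5, where 7.05% of 13587 genes were called. Gart (log2-fold change −2.31, edgeR adjusted p = 0.0271) and Adsl (−1.44, adjusted p = 0.0484) were lower in all 3 Ep400 clones than in all 3 Kat5 clones, against 17.6% of 14079 genes. Adssl1 (2.66, adjusted p = 0.0204) was higher in all 3, against 20.4%. With each of the 6 libraries left out in turn, Gart and Adssl1 were each called in 2 fits and Adsl in 1. No gene of the 10 had a WT library that lay far from the other WT libraries by Dixon's ratio, and the groups of 3 clones were not examined in this way.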

How the results depend on the processing

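Adssl1 in Kat5 against WT kept its direction in all 17 alternative fits (−2.89 to −2.68) and was called in all but the replicate block (−2.88, adjusted p = 0.0657), and Gart in Ep400 against WT was called in all of its 17 (−1.72 to −1.28). Clones of the same knockout differed by more than counting error (chi-square over its degrees of freedom, 94.5 to 258). What limits the comparisons was not tested. Of the 10 genes, the calls in Kat5 against WT went from 1 to 2 with DESeq2 and 0 with the block, and from 1 to 9 with libraries left out in turn, 9 being without Kat5/1. In Ep400 against WT they went from 4 to 1 with 1 fit of all 10 libraries, 1 with the block (Gart in both, with Pfas, Adsl and Impdh2 lost) and 1 under the 2-fold and mean count rule, and ranged from 2 to 5 with libraries left out. In Ep400 against Kat5 they went from 3 to 6 with DESeq2, 6 without a filter, 7 with 1 fit of all 10 libraries and 1 with the block, and ranged from 0 to 7. The share of all genes called in this comparison moved as well. It was 7.05% in the main fit, 13.6% with DESeq2, 6.47% without a filter, 25.3% with 1 fit and 1.57% with the block. Of the 40 other genes, the 2 called in Kat5 became 6 with DESeq2, 0 with 1 fit, 0 with the block and 0 to 10 with libraries left out. The 15 called in Ep400 became 23 with DESeq2, 3 with the block and 9 to 17. The 13 called in Ep400 against Kat5 became 22 with 1 fit, 3 with the block and 0 to 18. Replicate numbers shared only a name (correlations −0.0957 to 0.223).

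Over all genes, calls in Kat5 against WT were 84, and 1382 with DESeq2, 0 with the block and 1 to 2654 with libraries left out. In Ep400 against WT they were 1899, and 3177 with DESeq2, 168 with the block and 804 to 2020. In Ep400 against Kat5 they were 958, and 3021, 213 and 3 to 2537. Direction turned in 7 fits of genes that were not called. Adss in Ep400 against WT was −0.010 with limma-voom, −0.10 without Ep400/1 and −0.11 without Ep400/2, in a range of −0.11 to 0.28 with libraries left out. Adssl1 in Ep400 against WT was 0.013 without WT/3 and 0.17 without Ep400/1, in a range of −0.31 to 0.17. Paics in Ep400 against Kat5 was 0.030 with library size alone and 0.057 with the upper quartile. The cause was not tested.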
